A study of Mus musculus with 12 samples.

Results

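The mitochondrial ribosomal protein genes were taken as every protein-coding gene of the table with an Mrpl or Mrps symbol followed by a digit and a mean normalised read count of at least 10 over the 12 mice. The rule found 78 of the 19312 genes, of which 49 have an Mrpl symbol (proteins named for the large subunit) and 29 an Mrps symbol (proteins named for the small subunit). All 78 protein-coding genes of the annotation with such a symbol were in the table and were tested, and none was listed at 0 in any mouse. A normalised read count here is an estimated read count of a gene after scaling between libraries, so it is not a level per kilobase.

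The mitochondrial ribosome translates the small set of respiratory chain proteins that mitochondrial DNA encodes. Its ribosomal RNAs come from mitochondrial DNA, whereas its proteins are encoded in the nucleus, made in the cytosol and imported. Some of these proteins have a counterpart in bacterial ribosomes and others were added in the mitochondrial lineage, and mutations in several of them cause human mitochondrial disease, often with involvement of the brain.

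RNA was sequenced from 12 male C57BL/6N mice killed at postnatal day 25, 3 in each of 4 groups, with 1 library per mouse and no pooling of animals. WT-Veh and WT-Mem mice carried intact Shank2, which encodes a scaffold protein of excitatory synapses, and KO-Veh and KO-Mem mice carried the homozygous germline deletion of exons 6 and 7 of Shank2, so the gene was altered in all cells. All 4 groups were dosed orally at 2 doses per day between postnatal days 7 and 21, the Mem groups with memantine, an NMDA receptor blocker, at 20 mg/kg in 0.1% saccharin and the Veh groups with vehicle. The tissue is whole brain per the labels, whereas the methods describe forebrain without cerebellum.

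In bulk tissue, fewer cells of a type and less RNA per cell cannot be told apart. Shank2, the targeted gene, lay between 7156 and 8548 in the WT mice and between 2706 and 3178 in the KO mice. The values of a mouse summed to 30373849 to 31199251, which reflects the scaling and not the depth, so the depth per mouse is unknown here. KO-Veh replicate 3 stood apart by the 3 cerebellar markers (Cbln3, Gabra6, Pcp2), whose summed value was 1378 there and 19.0 to 99.4 in the other 11 mice, and Gabra6 was listed at 0 in some mice of both genotypes. The comparisons that use that mouse are therefore also given without it.

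The 78 members were expressed at moderate and rather even levels. The mean normalised read count ran from 122 for Mrpl23 to 1497 for Mrpl3, with a median of 607, and the median coefficient of variation over the 12 mice was 9.86%. Per kilobase of exon, the highest mean levels were 867 for Mrpl41, a subunit added in mitochondria, 806 for Mrpl12, the stalk protein that contacts translation factors, and 758 for Mrpl27, which sits near the peptidyl transferase centre. The lowest levels per kilobase were 25.1 for Mrpl23, 50.2 for Mrps35 and 54.98 for Mrpl33. Exon length here is the union of all annotated exons, so a gene with long rare transcripts has a lower level per kilobase. The order is a description of annotated genes, and Mrpl23 is uncertain, because a processed pseudogene with the symbol Mrpl23-ps1 was listed at a mean of 406 in the same table and reads of the pair could be split between them.

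KO mice had lower levels of 10 of the 78 members when both treatments were pooled, and no member was called higher. In this comparison KO was set against WT over all 12 mice with treatment as a covariate, and a gene was called at an adjusted p under 0.05 in limma with Benjamini-Hochberg adjustment over all 17655 genes tested. Of all genes tested, 10.8% were called, and 5.91% were called lower. The members called lower were Mrps21, Mrpl36, Mrps36, Mrpl12, Mrps25, Mrpl24, Mrpl34, Mrps6, Mrpl46 and Mrpl52, and their log2 fold changes ran from -0.51 to -0.24. They are spread over the genome (GRCm38), with Mrps21 at chr3:95862634-95871519 and Mrpl24 on the same chromosome at chr3:87919506-87923672, Mrps36 at chr13:100735955-100744659 and Mrpl36 at chr13:73328513-73332178, and the other 6 on 6 other chromosomes. Negative fold changes were seen for 59 of the 78 members and the median was -0.086, against a median of 0.0035 over all genes tested. Without WT-Mem replicate 3 the median of the members was -0.054, with 54 negative. At an unadjusted p under 0.05, 22 members were lower (15.1% of all genes) and 2 were higher (14.3% of all genes). The 6 KO mice lay below all 6 WT mice for 3 of the 78 members, compared with 2.2% of all genes tested. Without KO-Veh replicate 3 the members called fell to 3 (Mrps21, Mrps25 and Mrps36), while 60 of 78 fold changes were negative. Without KO-Mem replicate 1 there were 5 calls, without KO-Mem replicate 2 there were 5, without WT-Veh replicate 2 there were 6 and without WT-Mem replicate 3 there were 6. Counts with a mouse left out or with a processing setting changed, here and below, are given without the share of all genes in the same fit. A change in them is therefore not a result about the members alone.

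**Figure D1:**
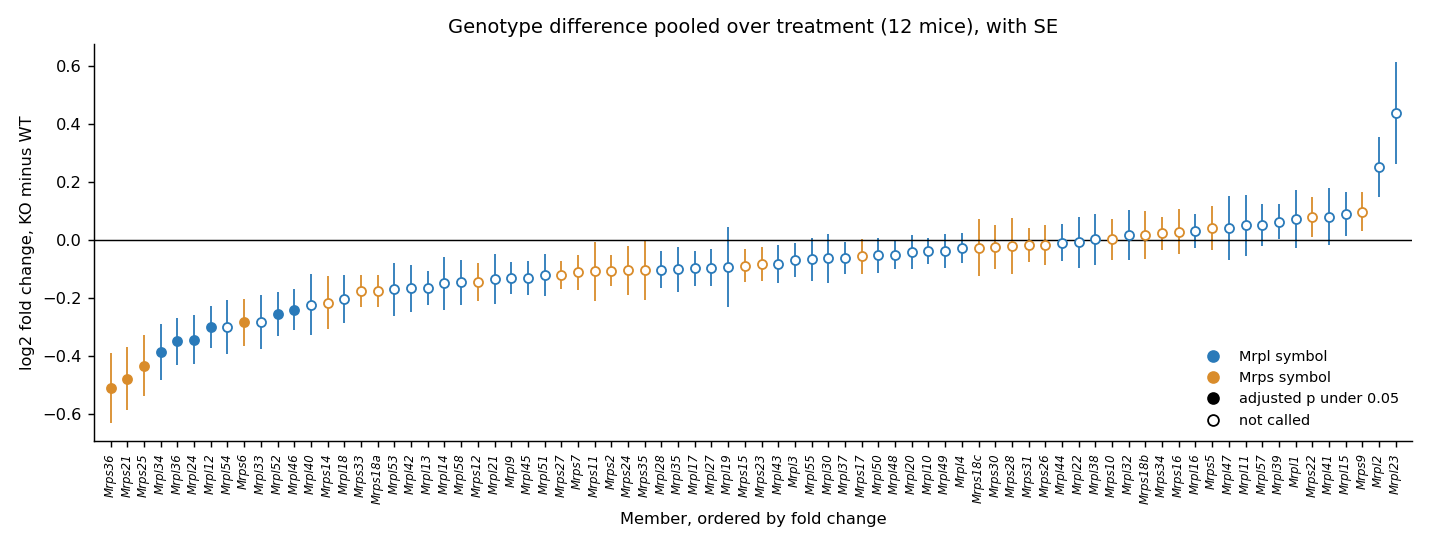
Log2 fold change of each of the 78 members, KO minus WT over 12 mice with treatment as a covariate, with the SE as bars, ordered from the lowest (Mrps36, -0.51) to the highest (Mrpl23, 0.44). Blue marks Mrpl symbols, orange Mrps symbols, and filled points the 10 members called at an adjusted p under 0.05, all of which lie below 0.

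The calls came from both symbol groups and from both evolutionary classes, while 5.91% of all genes tested were called lower. The symbol groups follow names, and Mrps18a and Mrps30 sit in the large subunit. Of the members with an Mrpl symbol, 6 of 49 were called lower (median log2 fold change -0.082), and of those with an Mrps symbol, 4 of 29 (median -0.088). Of the 46 members with a bacterial counterpart, 6 were called lower (median -0.094), and of the 32 members without one, 4 were called lower (median -0.074). A difference between these classes was not tested.

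Mrps36, Mrps21 and Mrps25 had the largest decreases of the 78 members, and Mrps21 and Mrps36 were called whichever mouse was left out. Mrps21, whose protein is the counterpart of bacterial S21, read 550.3, 627 and 708 in vehicle-treated and 572, 511 and 617 in memantine-treated WT mice, against 435, 480.2 and 463 in vehicle-treated and 288, 481 and 449 in memantine-treated KO mice. All 6 KO mice lay below all 6 WT mice, with KO-Mem replicate 1 lowest. The decrease was 28.2%, or -0.48 ± 0.11 in log2 units (SE), with an adjusted p of 0.0179 in limma. Mrps36, whose protein is better known as the Kgd4 component of the 2-oxoglutarate dehydrogenase complex of the citric acid cycle than as a ribosomal subunit, read 301, 369.9 and 511 in vehicle-treated and 330.3, 360.0 and 379 in memantine-treated WT mice, against 244, 312 and 273 in vehicle-treated and 211, 234 and 296 in memantine-treated KO mice. The genotypes overlapped through 1 KO-Veh mouse at 312, which lay above 1 WT-Veh mouse at 301. Mrps36 changed by -0.51 ± 0.12 in log2 units (SE), with an adjusted p of 0.0189 in limma.

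Mrps25 and Mrps6 were the other called genes with an Mrps symbol. Mrps25, a subunit added in mitochondria, read 1428, 1493 and 1342 in vehicle-treated and 1673, 1429 and 1486 in memantine-treated WT mice, against 1193, 1371 and 1234 in vehicle-treated and 783, 918 and 1150.4 in memantine-treated KO mice. Every KO-Mem mouse lay below every other mouse, and the KO-Veh and WT-Veh groups overlapped through 1 mouse each. Over both treatments it changed by -0.43 ± 0.10 in log2 units (SE), with an adjusted p of 0.0214 in limma. Of the 6576 exon bases of Mrps25, 4590 (69.8%) lie on exons of Nr2c2 on the opposite strand. The methods do not describe the library kit as keeping the strand, so reads of the pair may not be told apart there. Nr2c2, a nuclear receptor gene, lay between 2743 and 3703 in the WT and between 3421 and 4236 in the KO mice (log2 fold change 0.17 ± 0.077, adjusted p = 0.148 in limma). Mrps6, the counterpart of bacterial S6, ran from 461 to 565 in the WT mice (median 527) and from 375 to 482 in the KO mice (median 427). The genotypes of Mrps6 overlapped, and it changed by -0.28 ± 0.081 in log2 units (SE), with an adjusted p of 0.0373 in limma. Its exons share 159 bases, 10.4%, with the sodium and myo-inositol transporter gene Slc5a3 on the same strand. Slc5a3 was itself called lower in KO mice (log2 fold change -0.38 ± 0.086, adjusted p = 0.0168 in limma).

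Among the large-subunit genes, Mrpl36 and Mrpl24 did not overlap between the genotypes. Mrpl36, the counterpart of bacterial L36, read 481, 607 and 517 in vehicle-treated and 506, 482 and 505 in memantine-treated WT mice, against 439, 479.9 and 394 in vehicle-treated and 331, 369 and 428 in memantine-treated KO mice. The gap between the genotypes was narrow, since the highest KO mouse at 479.9 stood just under the lowest WT mouse at 480.6, and Mrpl36 changed by -0.35 ± 0.081 in log2 units (SE), with an adjusted p of 0.0183 in limma. Mrpl24, a subunit with a bacterial counterpart that is involved in assembly of the large subunit, read 802, 875 and 961 in vehicle-treated and 785, 826 and 860.5 in memantine-treated WT mice, against 759, 759 and 694 in vehicle-treated and 493, 634 and 720.2 in memantine-treated KO mice. KO-Mem replicate 1 was again the lowest mouse, and Mrpl24 changed by -0.34 ± 0.084 in log2 units (SE), with an adjusted p of 0.0224 in limma. Of the exon bases of Mrpl24, 26.3% lie on exons of Rrnad1 on the opposite strand, and Rrnad1 had a log2 fold change of -0.015 ± 0.075 (adjusted p = 0.916 in limma).

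The other 4 large-subunit genes called each overlapped between the genotypes. Mrpl12 forms the flexible stalk together with Mrpl10 and is also known as a binding partner of the mitochondrial RNA polymerase. It ran from 1207 to 1581 in the WT mice (median 1341) and from 999 to 1225 in the KO mice (median 1074), a change of -0.30 ± 0.072 in log2 units (SE) with an adjusted p of 0.0212 in limma. Mrpl34, the counterpart of bacterial L34 and the shortest member by exon length among those called (607 bases), ran from 314 to 452 in WT (median 355) and from 231 to 317 in KO mice (median 284), a change of -0.39 ± 0.096 in log2 units (SE) with an adjusted p of 0.0237 in limma. For Mrpl12 the overlap came from 2 KO mice above the lowest WT mouse, and for Mrpl34 the highest KO mouse lay above the 3 lowest WT mice. Mrpl46, a subunit added in mitochondria, ran from 393 to 506 in WT and from 351 to 408 in KO mice (log2 fold change -0.24 ± 0.070, adjusted p = 0.0403 in limma). Mrpl52, also added in mitochondria, ran from 357 to 452 in WT and from 319 to 369.5 in KO mice (log2 fold change -0.26 ± 0.075, adjusted p = 0.0412 in limma). Mrpl46 lies head to head with another member, Mrps11, and their exons share 173 bases on opposite strands. Mrps11 ran from 405 to 576 in WT and from 328 to 495 in KO mice and was not called (log2 fold change -0.11 ± 0.10, adjusted p = 0.508 in limma).

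**Figure D2:**
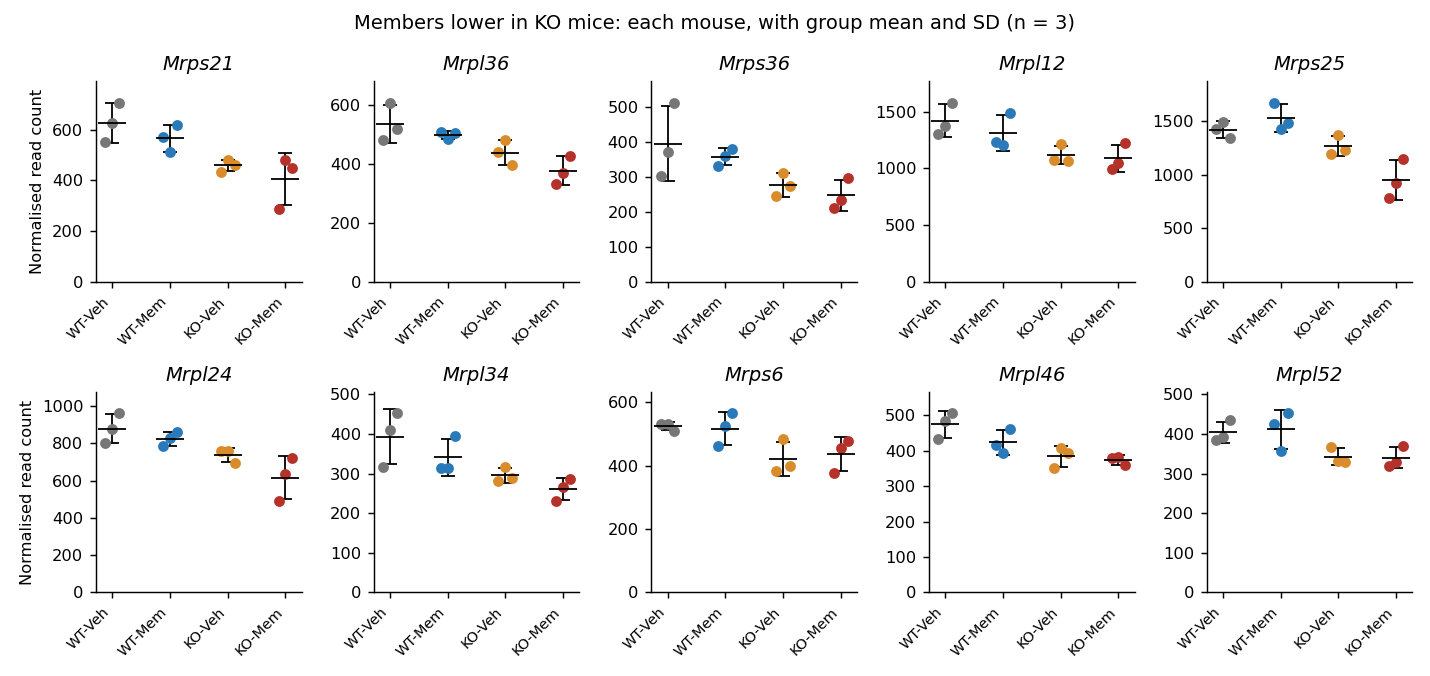
Normalised read count (y axis from 0) of the 10 members called lower in KO mice, with 1 point per mouse, the horizontal line at the group mean and the bar at 1 SD (n = 3 per group). The KO group means lie below the WT group means in each panel, and Mrps25 is lowest in KO-Mem mice, at 783 to 1150.4.

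The promoters of the called members did not share 1 of the short motifs that are common in promoters of mitochondrial genes. RefSeq (build GRCm38.p6) gave a window of 250 bases before to 50 bases after the start for 69 of the 78 members, including the 10 called, and both strands were searched for 5 motifs. The NRF1 core GCATGCGC was in the window of 8 of 69 members (11.6%; 5.5% of 11687 protein-coding genes), the ETS core CCGGAAG in 26 (37.7%; 17.7%) and the YY1 core AAGATGGC in 12 (17.4%; 4.68%). The Sp1 core GGGCGG was in 34 (49.3%; 66.6%) and CCAAT in 27 (39.1%; 42.5%). Matches to the ETS and YY1 cores can overlap, since CCGGAAG ends in the letters with which AAGATGGC begins. Among the 10 called members, the NRF1 core was in 0, the ETS core in 3 (Mrps21, Mrpl34 and Mrpl52), the YY1 core in 1 (Mrpl36), GGGCGG in 3 and CCAAT in 3. A match is a run of letters and not a measured binding site.

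The 200 bases before the RefSeq start are shown for the 3 called members with an NRF1, ETS or YY1 match in that stretch and for Mrps36, the called member with the largest decrease, which had none. Each runs 5′ to 3′ on the strand of its gene, and capitals mark a match to the NRF1, ETS or YY1 core or its reverse complement, while GGGCGG and CCAAT are left in lower case. They lie at chr13:73330809-73331008 on the plus strand (Mrpl36), chr8:71464726-71464925 on the plus strand (Mrpl34), chr14:54426709-54426908 on the plus strand (Mrpl52) and chr13:100744660-100744859 on the minus strand (Mrps36).
Mrpl36: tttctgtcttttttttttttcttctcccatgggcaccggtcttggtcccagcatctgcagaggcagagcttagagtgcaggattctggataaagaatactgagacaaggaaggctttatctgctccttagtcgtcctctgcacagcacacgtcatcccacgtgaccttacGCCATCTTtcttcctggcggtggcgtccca
Mrpl34: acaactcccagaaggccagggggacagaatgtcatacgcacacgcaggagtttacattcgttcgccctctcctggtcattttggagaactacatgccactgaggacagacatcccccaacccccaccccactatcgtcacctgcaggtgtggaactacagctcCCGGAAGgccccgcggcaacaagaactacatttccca
Mrpl52: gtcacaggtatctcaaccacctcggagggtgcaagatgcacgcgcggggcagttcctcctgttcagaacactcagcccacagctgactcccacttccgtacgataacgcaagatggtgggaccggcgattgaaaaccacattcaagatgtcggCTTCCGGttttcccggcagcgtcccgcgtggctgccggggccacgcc
Mrps36: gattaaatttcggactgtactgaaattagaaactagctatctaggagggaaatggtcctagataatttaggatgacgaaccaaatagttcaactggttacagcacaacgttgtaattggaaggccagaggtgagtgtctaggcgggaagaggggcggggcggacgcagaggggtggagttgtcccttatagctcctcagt

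The members outside the calls had fold changes of both signs, most of them negative. The 19 members with a positive fold change were all among them. Mrps12, a protein of the decoding centre, ran from 755 to 900.3 in WT and from 646 to 819 in KO mice (log2 fold change -0.15 ± 0.066, adjusted p = 0.155 in limma). Of the 3 copies of the S18 family, Mrps18a, which sits in the large subunit despite its name, ran from 847 to 930.0 in WT and from 739 to 921 in KO mice (log2 fold change -0.18 ± 0.056, adjusted p = 0.0556 in limma). Mrps18b and Mrps18c had log2 fold changes of 0.019 ± 0.083 and -0.026 ± 0.098 (SE). The copies thus differed in their values, and a difference between them was not tested. Mrpl10 and Mrpl11, the stalk and stalk base partners of Mrpl12, had log2 fold changes of -0.038 ± 0.046 and 0.051 ± 0.10 (SE), with 95% intervals from -0.14 to 0.060 and from -0.17 to 0.27. The interval of Mrpl12 itself was -0.46 to -0.15. Mrpl45, which holds the ribosome to the inner membrane, had -0.13 ± 0.059 (adjusted p = 0.153 in limma). Mrpl58, a peptidyl-tRNA hydrolase built into the large subunit, had -0.15 ± 0.078 (adjusted p = 0.229 in limma), and Mrps30, which also sits in the large subunit, had -0.023 ± 0.076 (adjusted p = 0.868 in limma).

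The 3 members that went furthest against the sign of the median were Mrpl23, Mrpl2 and Mrps9, and none was called. Mrpl23, a protein at the exit of the peptide tunnel, read 108, 112 and 70.0 in vehicle-treated and 94.3, 101 and 134 in memantine-treated WT mice, against 83.0, 134 and 179.9 in vehicle-treated and 129.9, 166 and 157 in memantine-treated KO mice (log2 fold change 0.44 ± 0.18, adjusted p = 0.112 in limma). It was the least expressed member, and Mrpl23-ps1 went the other way, from 360.0 to 523 in WT and from 346 to 397 in KO mice (log2 fold change -0.20 ± 0.086, adjusted p = 0.139 in limma). Mrpl23 lies at chr7:142532686-142540747, on the chromosome that also carries Shank2. Whether DNA linked to the deletion had a part in its values was not tested. Mrpl2, a core protein near the peptidyl transferase centre, ran from 525 to 814 in WT and from 651 to 885 in KO mice (log2 fold change 0.25 ± 0.10, adjusted p = 0.122 in limma). Mrps9, the counterpart of bacterial S9, had a log2 fold change of 0.099 ± 0.067 (adjusted p = 0.345 in limma).

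Short genes made up most of the calls. The 10 called members had a median exon length of 1344.5 bases, against 2660 bases in the other 68 members and 4050 bases over all genes tested. Of the 5 length classes of equal size over all genes, the shortest (150 to 2178 bases) held 38 members, of which 34 had a negative fold change and 8 were called, while 7.22% of all genes in this class were called lower. Across the 78 members the log2 fold change correlated with log2 exon length at r = 0.30 (Spearman rho = 0.30). Over 17644 genes the values were r = 0.043 and Spearman rho = 0.10. Both are descriptions over genes measured in the same libraries. After the trend of each mouse over exon length and GC content was removed, 12 members were called and 59 fold changes were negative. The share of all genes called in that fit is not given, so this count is not a result about the members alone.

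**Figure D3:**
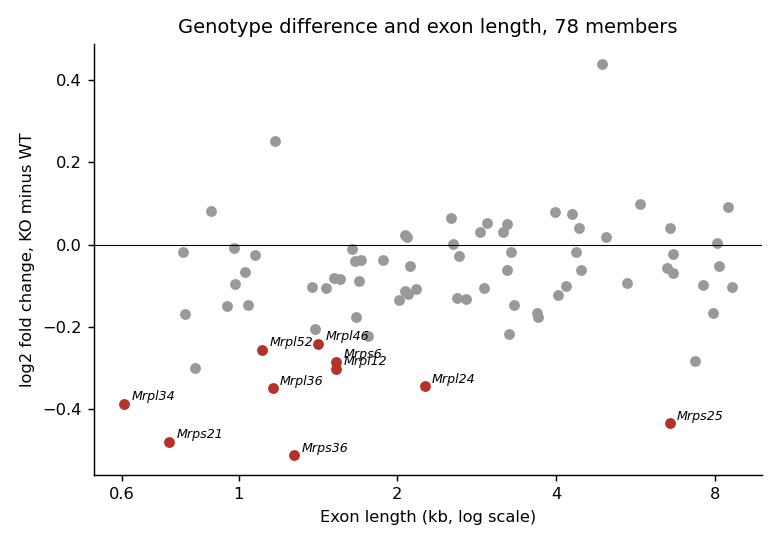
Log2 fold change, KO minus WT over 12 mice, against exon length in kilobases (log scale) for the 78 members, with the 10 called members in red. Of the called members, 8 lie in the shortest length class, at or under 2178 bases, and Mrps25 is the called member with the longest exons, 6576 bases.

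In Veh-K/W, the comparison of KO-Veh with WT-Veh mice that asks what the deletion alone changes, 0 of the 78 members were called in limma and 0.0283% of all genes were. At an unadjusted p under 0.05, 11 members were lower (7.68% of all genes) and 1 was higher (6.73% of all genes). The 3 KO-Veh mice lay below all 3 WT-Veh mice for 11 of 78 members, and the same held for 10.7% of all genes. Negative fold changes were seen for 59 of 78 members, with a median of -0.080, against 0.0017 over all genes. The median was -0.13 without WT-Veh replicate 1 and -0.052 without WT-Veh replicate 3. Without KO-Veh replicate 3 it was -0.089, 59 fold changes were negative and 0 members were called. The 11 lower members became 5 without KO-Veh replicate 1, and 6 without either WT-Veh replicate 3 or KO-Veh replicate 3. The smallest p belonged to Mrps21, at 459 ± 22.9 in KO-Veh and 628 ± 78.6 in WT-Veh mice (mean ± SD, n = 3 each), with a log2 fold change of -0.45 ± 0.11 and an adjusted p of 0.157 in limma. Mrpl12 followed, at 1120.3 ± 81.1 against 1421 ± 143 (log2 fold change -0.34 ± 0.090, adjusted p = 0.186 in limma). The groups did not overlap for either gene. Mrps6, Mrpl46 and Mrpl34 came next, with log2 fold changes of -0.32, -0.30 and -0.40 and adjusted p of 0.238, 0.249 and 0.251 in limma.

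In Mem-K/W, the comparison of KO-Mem with WT-Mem mice, 0 of the 78 members were again called in limma, and 0.068% of all genes were. At an unadjusted p under 0.05, 13 members were lower (10.8% of all genes) and 2 were higher (10.1% of all genes). The KO-Mem mice lay below all WT-Mem mice for 18 members, against 13.5% of all genes, and 55 of 78 fold changes were negative, with a median of -0.10. Without WT-Mem replicate 3 the median was -0.038 and 45 were negative. The 13 lower members became 6 without that mouse, 5 without KO-Mem replicate 1 and 7 without KO-Mem replicate 2. Mrps25 had the smallest p, at 951 ± 186 in KO-Mem and 1529 ± 128 in WT-Mem mice (mean ± SD, n = 3 each), with a log2 fold change of -0.70 ± 0.13 and an adjusted p of 0.0884 in limma. Mrps36, Mrpl36, Mrpl24 and Mrps21 followed, with log2 fold changes of -0.54, -0.41, -0.44 and -0.51 and adjusted p of 0.101, 0.111, 0.125 and 0.155 in limma. For these 5 genes the groups did not overlap. KO-Mem replicate 3 had the highest value of its group in 4 of the 5, and without it 5 members were called (Mrpl18, Mrpl24, Mrpl36, Mrps25 and Mrps36).

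These comparisons share no mice and can be set side by side. Of the 78 members, 46 were lower in KO mice in both, 10 were higher in both and 22 went opposite ways. The share with 1 direction in both was 71.8%, near the 70.0% of all 17396 genes tested in both, whereas the share lower in both was 59.0% against 34.7%. Across genes the fold changes correlated at r = 0.70 for the members and r = 0.44 for all genes, a description over genes that share libraries.

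**Figure D4:**
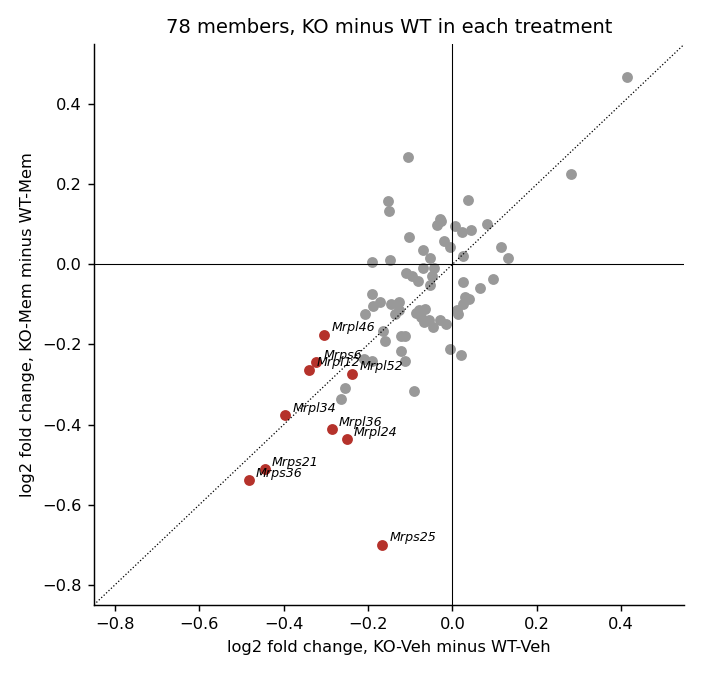
Log2 fold change of the 78 members in KO-Veh against WT-Veh mice (x axis) and in KO-Mem against WT-Mem mice (y axis), with the 10 members called over both treatments in red and equality as a dotted line. Of the 78 points, 46 lie in the lower left, below 0 on both axes, and Mrps25 lies furthest below the dotted line, at -0.17 and -0.70.

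Memantine changed no member by the test in either genotype. In KO-M/V (KO-Mem against KO-Veh) 0 of 78 members and 0% of all genes were called in limma, and at an unadjusted p under 0.05 there were 1 lower and 1 higher member, while 8.88% of all genes reached that level. The lower one was Mrps25 (log2 fold change -0.43 ± 0.13, adjusted p = 0.554 in limma), for which the 3 KO-Mem mice at 783, 918 and 1150.4 lay below the 3 KO-Veh mice at 1193, 1371 and 1234. The higher one was Mrpl41, at 951, 889 and 751 in KO-Mem and 700.4, 678 and 778 in KO-Veh mice (log2 fold change 0.26 ± 0.10, adjusted p = 0.555 in limma). The groups overlapped for Mrpl41, and the third by p, Mrpl24, had a log2 fold change of -0.28 ± 0.13 (adjusted p = 0.563 in limma). Without KO-Mem replicate 3, Mrps25 was the 1 member called in KO-M/V, and without KO-Veh replicate 3 the count was 0.

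In WT-M/V (WT-Mem against WT-Veh) 0 of 78 members and 0.0114% of all genes were called in limma, and 0 members reached an unadjusted p under 0.05, against 3.97% of all genes. The smallest p belonged to Mrps30 (log2 fold change 0.23 ± 0.12), Mrpl22 (-0.25 ± 0.13), a protein lining the peptide tunnel, and Mrpl46 (-0.16 ± 0.10), each with an adjusted p of 0.978 in limma. The median of the members was -0.015, and it was 0.0091 once the trend over length and GC content was removed, so its sign depended on this setting. Over both genotypes together, 0 members and 0% of all genes were called for memantine in limma, with 1 member lower and 1 higher at an unadjusted p under 0.05 (8.6% of all genes). Without KO-Veh replicate 3 these counts were the same. The first by p were Mrps30 (0.17 ± 0.076, adjusted p = 0.563), Mrpl24 (-0.18 ± 0.084, adjusted p = 0.566) and Mrpl36 (-0.16 ± 0.081, adjusted p = 0.60) in limma.

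The interaction asks whether the genotype difference changed with memantine. In limma 0 of 78 members and 0% of all genes were called, and 1 member had an unadjusted p under 0.05, against 4.76% of all genes. That member was Mrps25, whose genotype difference was -0.17 in the vehicle and -0.70 in the memantine mice, a difference of -0.53 ± 0.16 on the log2 scale (adjusted p = 0.947 in limma). Mrpl41 and Mrpl38 followed with 0.37 ± 0.18 and 0.31 ± 0.16, each with an adjusted p of 0.947 in limma. Without KO-Veh replicate 3, 0 members were called and 1 was lower and 1 higher at an unadjusted p under 0.05. The difference between the treatments therefore did not pass the test for any member, and the 95% interval of the Mrps25 value ran from -0.88 to -0.18.

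In KO-M/WT-V, KO-Mem against WT-Veh, 1 of 78 members was called in limma, where 3.37% of all genes were called and 2.05% were called lower. It was Mrps25, at 783, 918 and 1150.4 in KO-Mem and 1428, 1493 and 1342 in WT-Veh mice, with a log2 fold change of -0.60 ± 0.13 (adjusted p = 0.0405 in limma). The next were Mrpl36 (-0.51 ± 0.13, adjusted p = 0.0576) and Mrpl24 (-0.53 ± 0.14, adjusted p = 0.060) in limma. This count rested on single mice: it was 8 without KO-Mem replicate 3 and 0 without any 1 of the other 5 mice. In WT-M/KO-V, WT-Mem against KO-Veh, 0 members were called in limma (0.0227% of all genes), and 9 were higher in WT-Mem mice at an unadjusted p under 0.05 (4.71% of all genes). Mrps25, Mrps36 and Mrps21 led, with log2 fold changes of 0.27 ± 0.083, 0.37 ± 0.12 and 0.30 ± 0.096 and adjusted p of 0.464, 0.466 and 0.476 in limma. The 9 became 3 without KO-Veh replicate 3, with 0 called, and 3 without WT-Mem replicate 3. For Mrps25, Mrps36 and Mrps21 every WT-Mem mouse lay above every KO-Veh mouse. The same held for 12 of the 78 members in all, against 7.73% of all genes. These 2 comparisons share mice with those above.

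Some mice had high or low values for many members at once. The mean deviation of the 78 members, each measured on the log2 scale from its own 12-mouse mean, was -0.022, 0.062 and 0.13 in vehicle-treated and -0.020, -0.025 and 0.16 in memantine-treated WT mice, and -0.077, 0.0064 and -0.033 in vehicle-treated and -0.11, -0.079 and 0.013 in memantine-treated KO mice. The groups overlapped on this measure, and the third replicates of WT-Veh and WT-Mem stood highest. WT-Veh replicate 3 had the highest of the 12 values for 33 members and the lowest for 4, WT-Mem replicate 3 had the highest for 21, and KO-Mem replicate 1 had the lowest for 29 and the highest for 4. Whether the members vary together more than other genes was not tested. With both of the high WT mice left out, an alternative chosen after the data were seen, 2 members (Mrpl36 and Mrps25) were called lower in KO mice, and 51 of 78 fold changes were negative.

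Other gene groups of mitochondrial energy production and of translation had a median of the same sign in the genotype comparison, in which 5.91% of all genes were called lower. Of the nuclear-encoded respiratory chain subunits, 15 of 77 were called lower, 69 had a negative fold change and the median was -0.13. Of the mRNAs of the 13 proteins that the mitochondrial ribosome makes, 4 were called lower, 11 were negative and the median was -0.19. Protein levels were not measured. The mean log2 deviation of these mRNAs was 0.46 in WT-Veh replicate 3 and from -0.34 to 0.11 in the other mice. Of the cytosolic ribosomal proteins, 5 of 80 were called lower and 1 higher, 67 were negative and the median was -0.070, so that their share called lower was near that of all genes. The per-mouse levels of the nuclear respiratory chain subunits were likewise highest in WT-Mem replicate 3.

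**Figure D5:**
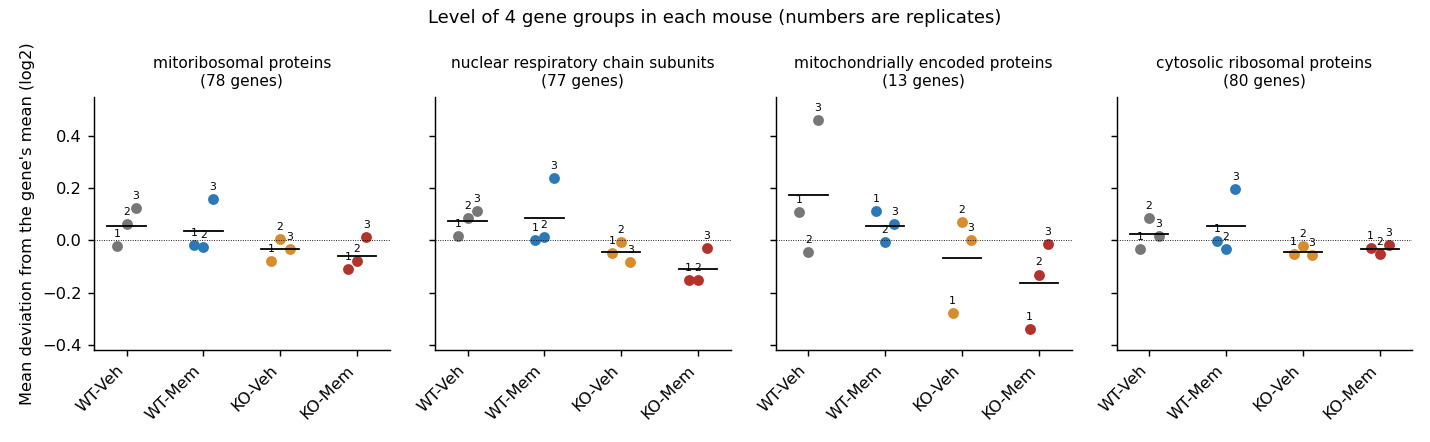
Mean log2 deviation of the genes of 4 groups, each gene taken from its own 12-mouse mean (y axis), 1 point per mouse with its replicate number, and a line at the group mean (n = 3). The mitochondrial ribosomal proteins ranged from -0.11 (KO-Mem replicate 1) to 0.16 (WT-Mem replicate 3), and WT-Mem replicate 3 was also highest for the nuclear respiratory chain subunits and the cytosolic ribosomal proteins.

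Among the remaining machinery of mitochondrial translation, calls went in both directions, and their counts are to be read against the 10.8% of all genes called. Of 5 mitochondrial ribosomal proteins under other symbols, 0 were called over both treatments and 4 were negative. Chchd1 had a log2 fold change of -0.25 ± 0.083 (adjusted p = 0.0620 in limma) and Aurkaip1 -0.16 ± 0.064 (adjusted p = 0.119 in limma). Of 11 translation factors, 1 was lower and 1 higher. Tufm, the elongation factor that brings aminoacyl-tRNA to the ribosome, ran from 1872 to 2195 in WT and from 1424 to 1894 in KO mice (log2 fold change -0.22 ± 0.063, adjusted p = 0.0391 in limma). Guf1, a GTPase related to bacterial LepA, ran from 1039 to 1149 in WT and from 1174 to 1809 in KO mice, with no overlap (log2 fold change 0.37 ± 0.080, adjusted p = 0.0137 in limma).

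Of 20 mitochondrial aminoacyl-tRNA synthetases and amidotransferase subunits, 1 was called, the prolyl-tRNA synthetase Pars2, which was higher (log2 fold change 0.33 ± 0.097, adjusted p = 0.0436 in limma). Of 24 assembly and rRNA modification factors, 2 were lower and 1 was higher. Mrm1, a methyltransferase of the large-subunit rRNA, was lower at -0.53 ± 0.13 (adjusted p = 0.0238 in limma), as was the assembly GTPase Mtg2 at -0.32 ± 0.094 (adjusted p = 0.0439 in limma). Its relative Mtg1 was higher at 0.28 ± 0.081 (adjusted p = 0.0398 in limma). Of 9 genes of mitochondrial DNA maintenance and transcription, 0 were called, and the smallest p belonged to the helicase Twnk (-0.16 ± 0.072, adjusted p = 0.161 in limma) and to Slirp, an RNA-binding protein of mitochondrial mRNA (-0.20 ± 0.10, adjusted p = 0.208 in limma).

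Markers of several cell types also moved with genotype, and their part in the values of the members was not tested. Over both treatments, the oligodendrocyte markers Mag and Mog were called lower in limma. Mag ran from 11014 to 14094 in WT and from 8762 to 11625 in KO mice (log2 fold change -0.31 ± 0.051, adjusted p = 0.0064 in limma), and Mog from 3568 to 5141 and from 2392 to 3834 (-0.39 ± 0.094, adjusted p = 0.0207 in limma). All 3 endothelial markers were lower (Cldn5, Flt1 and Pecam1), with summed levels of 3934 to 4474 and 3682 to 4102 in vehicle-treated and memantine-treated WT mice, and 3128 to 3510 and 3090.5 to 3788 in the KO mice likewise. All 3 haemoglobin genes that mark red blood cells were lower, with summed levels of 18108 to 24485, 12314 to 13798, 7244 to 17413 and 5421 to 11659 in the same order of groups. These lists mark glia, vessels and blood. Of 4 microglial markers, 1 was called lower (P2ry12) and all 4 were negative, with summed levels of 5191 to 6074, 5136 to 5599, 5196 to 5219 and 3917 to 4835. Of 4 astrocyte markers, 1 was called lower (Aqp4), with summed levels of 26294 to 29181, 26052 to 27120, 26448 to 26852 and 25188 to 26559.

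Of the neuronal, precursor, choroid plexus and cerebellar markers, 1 was called. Of 6 neuronal markers, 1 was called higher in KO mice (Gad2), with summed levels of 147498 to 171528, 164250 to 172712, 163173 to 169587 and 164882 to 166200 in that order. The neuronal markers that define a brain sample were thus present in every mouse. Of the 2 oligodendrocyte precursor markers 0 were called, with log2 fold changes of -0.11 for Cspg4 and 0.0092 for Pdgfra. Of the 3 choroid plexus markers 0 were called, with -0.24 for Kl and -0.25 for Ttr, and summed levels of 12330 to 14403, 12740 to 14309, 10937 to 15206 and 7038 to 13794. Of the 3 cerebellar markers 0 were called, with 1.31 for Cbln3 and 1.48 for Gabra6.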

How the data were processed

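Poly-A RNA libraries (a TruSeq mRNA kit, not described as stranded) from 12 mice were sequenced in pairs. The authors estimated transcript abundances with Salmon 1.1.0 (GRCm38, GC bias correction) and summed them to genes with tximport. Read counts were divided by DESeq2 size factors, per the paper, and the labels give DESeq2 1.26.0 and R 3.6.2. The deposited signal values are therefore normalised estimated read counts, not whole reads, and depth cannot be recovered. The members and lists were chosen with earlier results of these data known. Groups came from the labels, and each replicate is a separate mouse.

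Values were tested as log2(value + 1), on which scale fold changes are given, in genes with a mean of at least 10, with limma 3.58.1 in R 4.3.3 (eBayes with a trend), and p-values were adjusted over all genes tested. Of the 9 comparisons, 6 used the 6 mice of 2 groups, and genotype, treatment and interaction used all 12. The fit was run on simulated counts of fixed dispersion, without shifts shared by many genes of a mouse. That run does not measure error rates for the members. Symbols, positions and exon lengths came from GENCODE M21, which 19295 genes matched. Members were named if called, by smallest p (5 in Veh-K/W, Mem-K/W and the genotype comparison, 3 elsewhere), by highest or lowest level per kilobase, by going furthest against the median, or by role. Other lists are represented by their called genes, or by the 2 with the smallest p. Pseudocount, filter, scaling, length and GC trend, replicate block, prior variance, set of mice and single mice were varied. Count tests were planned for whole counts and were not used. One marker and the summed level of its list are not reported here.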

Additional observations from a re-analysis of the deposited data

Results flagged for a closer look

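The 28 members named above and the mean level of all members were examined in the 6 WT and the 6 KO mice. In 4 of these 58 sets of 6, 1 mouse stood apart from the other 5 by Dixon's criterion, which chance exceeds in about 1 of 20 sets. Mrpl36 was 607.131 in WT-Veh replicate 2, with the other WT mice at 480.575 to 516.787. Mrps36 was 511.396 in WT-Veh replicate 3, with the other WT mice at 300.868 to 378.71. Mrps21 was 287.73 in KO-Mem replicate 1, with the other KO mice at 434.81 to 480.872. Mrps18a was 921.202 in KO-Veh replicate 2, with the other KO mice at 739.072 to 806.176. It was called lower in KO mice without this mouse (log2 fold change -0.22, adjusted p = 0.0195 in limma) or with a filter at a mean of 50 (adjusted p = 0.0488 in limma). Leaving out the highest KO value must lower the KO mean, so the call without this mouse was favoured by that choice. Why these mice differed was not tested.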

How the results depend on the processing

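Depth cannot be read from scaled values, so small fold changes of members with values near 100 are the least certain, and with 3 mice per group the calls moved with single mice. The median fold change of the members kept its sign under all alternatives run except in WT-M/V, interaction and treatment, where it was near 0, but its size moved by over 1.5 times with single mice. With each mouse left out it ran from -0.10 to -0.054 in the genotype comparison, -0.13 to -0.052 in Veh-K/W, -0.13 to -0.038 in Mem-K/W, -0.13 to -0.049 in KO-M/WT-V and 0.011 to 0.12 in WT-M/KO-V. The genotype comparison (10 members called) gave 4 with a prior variance without a trend, 2 without WT-Veh replicate 3 and WT-Mem replicate 3, and 3 to 12 with each mouse left out in turn, among which Mrps21 and Mrps36 were called each time. Mrpl23 was called higher without KO-Veh replicate 1. Quantile normalization gave 9 and equal sums over protein-coding genes gave 8.

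In KO-M/WT-V (1 called) the count was 0 without the filter on low values, 0 with a prior variance without a trend, 8 with all 12 mice in one fit, 0 without the 2 WT mice, and 0 to 8 with each mouse left out. In Mem-K/W (0 called) it was 1 with all 12 mice in one fit (Mrps25) and 0 to 5 with each mouse left out, and in KO-M/V (0 called) 0 to 1. Deviations of mice with the same replicate number correlated at -0.18 to 0.080. Low correlations cannot show that mice are unpaired, so whether the numbers pair the mice was not decided. The replicate block gave 12 calls in the genotype comparison and 7 in KO-M/WT-V, and 12 and 5 with the length and GC trend removed as well. The cause of these changes was not tested. Of the counts, 163 stayed within 1.5 times the reported count and 22 did not. In most comparisons the reported count was 0, and a count that stayed at 0 is among the 163. The 163 therefore do not measure how firm the calls are.

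Members near 0 in the genotype comparison changed sign. With each mouse left out, the log2 fold change ran from -0.023 to 0.13 for Mrpl11, -0.024 to 0.075 for Mrps18b, -0.092 to 0.030 for Mrps18c and -0.071 to 0.010 for Mrps30. Without the 2 high WT mice it was 0.067 for Mrps18c and 4.03e-05 for Mrpl10.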
